A study of Mus musculus with 6 samples.

Results

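Motor proteins carry cargo along microtubules or move the microtubules themselves, and the genes described here encode kinesins, cytoplasmic dyneins, their light chains, dynactin and dynein adaptors. Members were taken by symbol: every Kif gene with a number, Klc1 to Klc4, the Dync, Dynll and Dynlt genes, Dctn1 to Dctn6, Bicd1, Bicd2 and Hook1 to Hook3. The rule matched 72 symbols, 4 pseudogene or antisense names were dropped, and 68 members remained of 35275 gene identifiers. Of these, 12 were mitotic kinesins, which build and work the spindle, and 56 were transport motors, a class that held all other members and so included Kif1bp, a kinesin-binding protein that is no motor. The minus-end kinesins named Kifc, the kinesin Cenpe, Kifap3 and the Dynlrb genes are not matched by the rule and are given with the partner genes. The cells came from E16.5 CD1 IGS mouse skin, in 2 groups of 3 libraries, K10-spastin and control. In K10-spastin embryos, labelled K10rtTA;TREspastin, and with TRE-H2B-GFP per the protocol, the keratin 10 promoter drives a doxycycline-dependent activator in suprabasal cells, and that activator switches on spastin, a microtubule-severing enzyme, and a nuclear green fluorescent histone. Dams of both groups had doxycycline chow from E14.5, and in both groups back-skin epidermis was freed with dispase, digested with trypsin and versene, and sorted for H2BGFP+ cells. The labels do not say which transgenes the control embryos carried or how many embryos made up a library, so spastin cannot be told apart from the other transgenes and p-values measure only the spread between these samples.

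Kinesins are motors that mostly walk towards microtubule plus ends, while cytoplasmic dynein walks towards minus ends and needs dynactin and an adaptor such as Bicd2 or a Hook protein to run far. Several kinesins act in mitosis instead, at kinetochores, on chromosome arms or at the spindle midzone, and their genes are transcribed mainly in dividing cells. In epidermis most divisions take place in the basal layer, and microtubules are rearranged towards the cell cortex as cells leave it.

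Levels are FPKM, a fragment count divided by gene length and by depth, and 3 values in a row stand for libraries 1, 2 and 3 of a group. Depth read from the step of the low values was 17.4 to 19.6 M (mega) fragments in K10-spastin libraries and 16.0 to 22.5 M in controls, so that 3 fragments in a 1 kb transcript were worth 0.134 to 0.187 FPKM. Spast, the induced gene, had 1431, 639 and 213 FPKM in K10-spastin libraries, against 21.2, 24.0 and 21.4 FPKM in controls, which fits the labels, with a log2 change of 4.65 ± 0.60 (SE) and an adjusted p of 0.00865 (limma, Benjamini-Hochberg). On the first principal component (62.1% of variance) K10-spastin 1, 2 and 3 lay at 62.5, 31.5 and 24.3, the order of their Spast levels. The controls lay between -43.7 and -36.1. K10-spastin 1 was thus the farthest from the controls and the library with the most Spast, and results are given with and without it. Keratinocyte markers were the highest of the marker lists in every library: 6 suprabasal markers summed to 31269 to 46232 FPKM in K10-spastin libraries and 51688 to 67976 FPKM in controls, and 6 basal markers to 2495 to 4723 FPKM in K10-spastin libraries and 4083 to 7171 FPKM in controls. The sum of 6 fibroblast markers was 0.791 to 3.03 FPKM in K10-spastin libraries and 6.44 to 42.3 FPKM in controls, and that of 6 neuron and Schwann cell markers, mostly Tubb3, was 4.59 to 39.0 FPKM in K10-spastin libraries and 1.16 to 1.91 FPKM in controls. The 3 erythroid markers summed to 15.3, 5.12 and 3.16 FPKM in K10-spastin libraries, against 6.03, 57.7 and 278 FPKM in controls, control 3 being far the highest. The 5 Langerhans and T cell markers summed to 0.148 to 1.14 FPKM in K10-spastin libraries and 0.0838 to 1.24 FPKM in controls, with Cd207 and Cd3e at 0 in all 6 libraries. The 6 melanocyte markers summed to 1.91 to 23.8 FPKM in K10-spastin libraries and 3.61 to 15.2 FPKM in controls, and the Merkel cell, endothelium and muscle lists to at most 4.79 FPKM in K10-spastin libraries and 5.60 FPKM in controls. The part of these marker differences in the motor gene levels was not tested. In bulk RNA, fewer cells of a type and less RNA per cell cannot be told apart.

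Few motor genes passed the test. Of the 52 members with a mean of at least 1 FPKM, which were the members tested, 4 passed at an adjusted p under 0.05: Dynll1 rose, and Dynll2, Dynlt1b and Klc4 fell. That is 7.69% of the members tested, beside 11.0% of the 11071 genes tested, 5.14% higher and 5.90% lower, so the share is not above the background. The 3 K10-spastin values lay wholly above the 3 control values in 9 members and wholly below in 11, together 38.5% of members beside 40.4% of all genes (15.6% above, 24.8% below). Under median-of-ratios scaling these were 13 members above and 8 below, beside 24.1% and 20.3% of all genes, and under quantile scaling 11 above and 9 below, beside 17.3% and 24.2%. An unadjusted p under 0.05, counted for each role hereafter, was reached by 31.5% of all genes, and by 13 of 41 transport motors (31.7%). The median log2 change was 0.11 over the members, 0.02 over the 41 tested transport motors (-0.01 under quantile scaling) and -0.09 over all genes. Median-of-ratios scaling moved the all-gene median to 0.04, so small changes are to be read relative to that shift.
Without K10-spastin 1, 7 members rose (Kif20a, Kif20b, Kif22, Kif23, Kif2c, Bicd2 and Dynll1) and 4 fell (Kif13a, Dynll2, Dynlt1b and Klc4), beside 6.24% of all genes higher and 6.24% lower. Leaving out any 1 control removed the calls of Dynll1, Dynll2, Dynlt1b and Klc4. The share of all genes called also fell, from 11.0% to 4.06%, 1.91% and 1.31% without controls 1, 2 and 3.

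**Figure D1:**
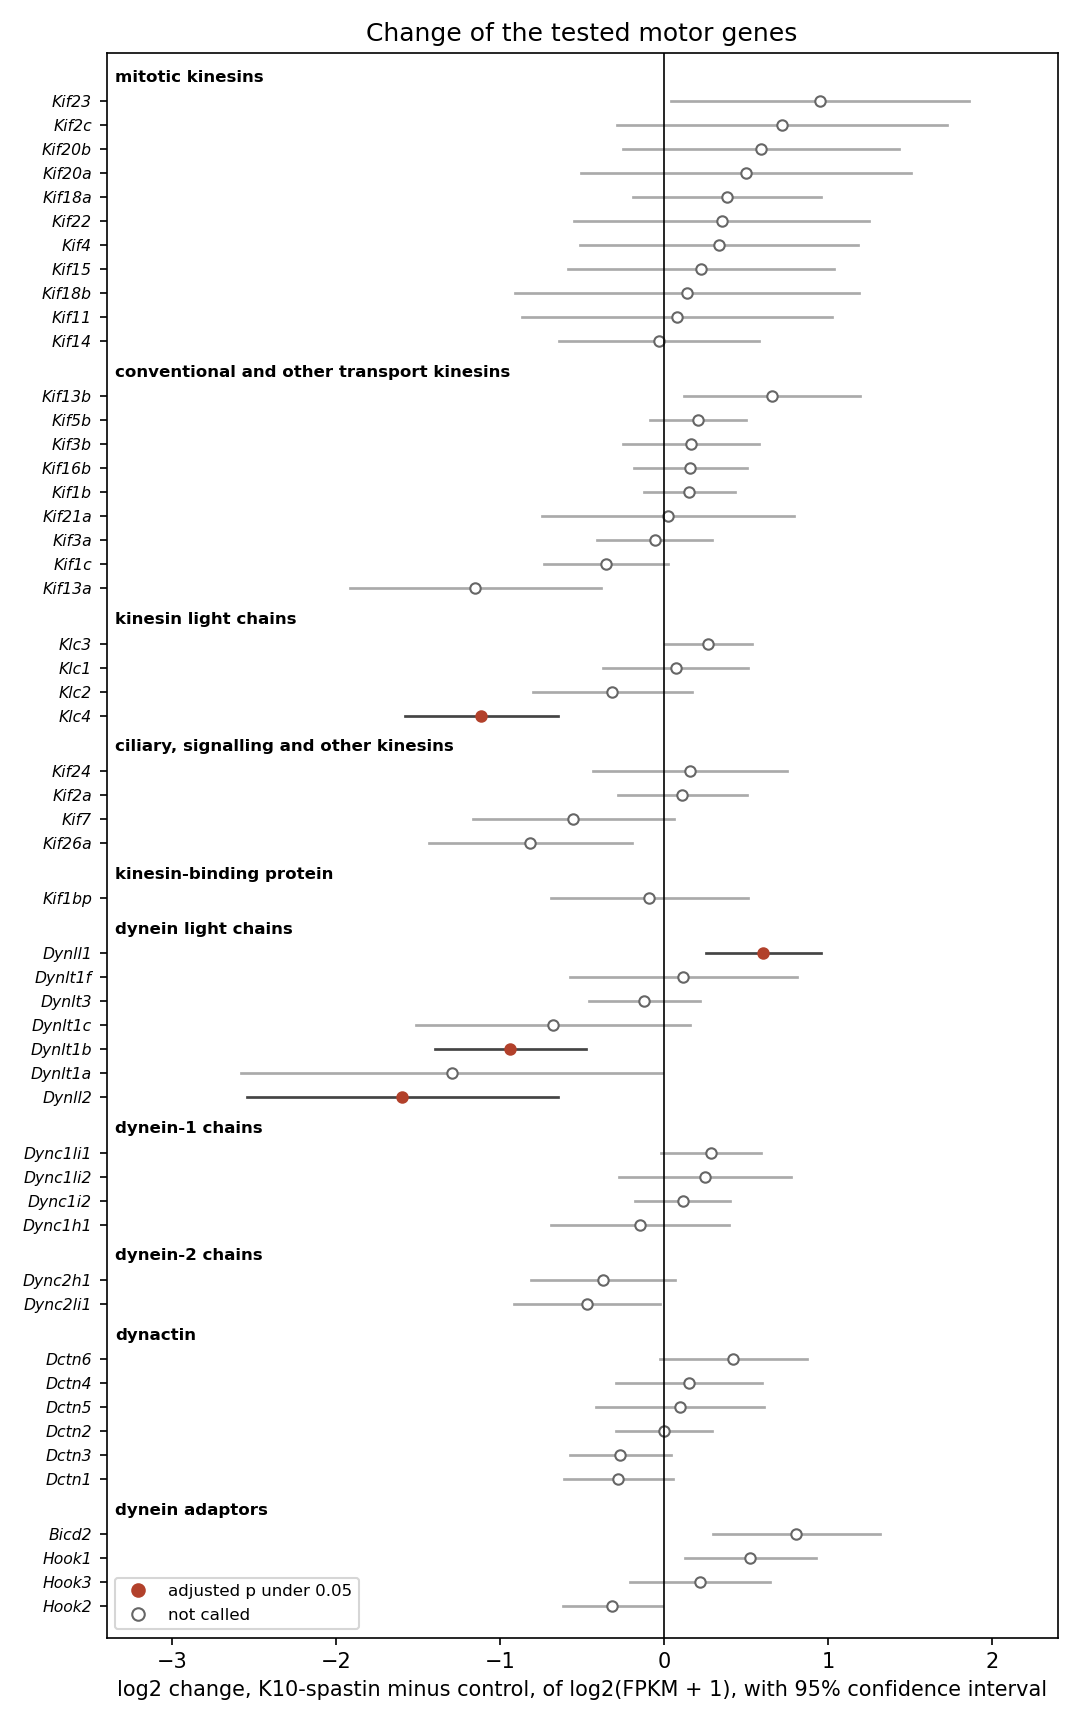
Log2 change of each of the 52 tested motor genes, K10-spastin minus control, on the scale log2(FPKM + 1), grouped by role, with 95% confidence intervals from limma. Filled points are the 4 genes that passed at an adjusted p under 0.05, Dynll1 to the right of 0 and Dynll2, Dynlt1b and Klc4 to the left.

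The mitotic kinesins spread widely among the K10-spastin libraries, and none passed the test. All 11 tested had the order K10-spastin 2, then 3, then 1, an order found in 4400 of all 11071 genes tested. K10-spastin 2 lay above every control for 11 of 11 and K10-spastin 3 for 10 of 11, whereas K10-spastin 1 lay below every control for 9 of 11 and among them for Kif23 and Kif18a. Over all genes tested, K10-spastin 2 lay above every control in 39.8%, K10-spastin 3 in 31.6%, and K10-spastin 1 below every control in 58.1%. Set against each gene's control mean on the log2 scale, the 11 averaged -0.43 in K10-spastin 1, 1.03 in K10-spastin 2 and 0.56 in K10-spastin 3, where the control libraries averaged -0.03 to 0.03.
Kif2c, the kinetochore depolymerase MCAK, had 5.93, 23.7 and 14.8 FPKM in K10-spastin libraries, against 8.73, 7.12 and 6.68 FPKM in controls. K10-spastin 2 and 3 are above all controls and K10-spastin 1 below them, and the log2 change was 0.72 ± 0.43 (SE; limma adjusted p = 0.294). Kif23, a subunit of centralspindlin at the midzone of dividing cells, had 5.32, 18.2 and 12.2 FPKM in K10-spastin libraries, against 4.25, 5.51 and 5.47 FPKM in controls. Its K10-spastin 1 value lay among the controls and the other two above them, with a log2 change of 0.95 ± 0.39 (adjusted p = 0.143). By limma 0 of 11 passed, 1 had an unadjusted p under 0.05, and the adjusted p of the 11 ran from 0.143 to 0.947. With array weights 6 of the 11 passed as higher, beside 13.9% of all genes.
Kif11, the plus-end motor that pushes spindle poles apart, had 2.91, 10.9 and 9.18 FPKM in K10-spastin libraries, against 6.07, 6.44 and 6.66 FPKM in controls. Kif20a, which brings the Aurora B complex to the midzone, had 2.38, 10.9 and 6.67 FPKM in K10-spastin libraries, against 4.25, 3.61 and 3.52 FPKM in controls. Kif20b, a kinesin of cytokinesis, had 1.13, 4.76 and 2.97 FPKM in K10-spastin libraries, against 1.65, 1.46 and 1.17 FPKM in controls. In each of them K10-spastin 1 was the lowest of the 6 libraries and K10-spastin 2 the highest. Kif22, a chromokinesin that pushes chromosome arms, had 3.07, 10.9 and 8.16 FPKM in K10-spastin libraries, against 5.52, 4.51 and 4.98 FPKM in controls. Kif4, another chromokinesin, had 3.82, 12.2 and 8.91 FPKM in K10-spastin libraries, against 5.08, 6.57 and 5.82 FPKM in controls. Kif18b, which trims astral microtubules, had 2.39, 11.2 and 7.37 FPKM in K10-spastin libraries, against 5.42, 4.38 and 6.52 FPKM in controls. These have the same order of libraries. Kif15, which holds spindle poles apart beside Kif11, had 1.16, 4.71 and 2.82 FPKM in K10-spastin libraries, against 1.94, 2.22 and 2.13 FPKM in controls. Kif14, of the cytokinetic midbody, had 0.678, 2.05 and 1.03 FPKM in K10-spastin libraries, against 1.40, 1.08 and 1.22 FPKM in controls. Kif18a, which damps chromosome oscillation, had 0.818, 1.999 and 1.72 FPKM in K10-spastin libraries, against 1.05, 0.714 and 0.899 FPKM in controls. For Kif14 alone K10-spastin 3 lay below all controls, and for Kif18a K10-spastin 1 lay among them. The 12th member, Kif2b, was listed at 0 in every library.
The median log2 change of the 11 was 0.35, against -0.09 over all genes, and 10 of 11 were above 0 (11 of 11 under median-of-ratios and quantile scaling). Without K10-spastin 1 it was 0.75, beside 0.01 over all genes. Kif20a, Kif20b, Kif22, Kif23 and Kif2c then passed, beside 6.24% of all genes higher. Their log2 changes were 1.00, 0.98, 0.80, 1.40 and 1.22 (limma adjusted p from 0.0177 to 0.0452). Without K10-spastin 2 the median of the 11 was 0.03, beside -0.16 over all genes. None passed there, beside 3.25% of all genes higher. The 6 basal keratinocyte markers summed to 3918, 4723 and 2495 FPKM in K10-spastin libraries, against 7171, 4083 and 7168 FPKM in controls. Krt5, Krt15 and Col17a1 had the order of the mitotic kinesins, K10-spastin 2, then 3, then 1. Itga6 was highest in K10-spastin 2 and lowest in K10-spastin 3. Krt14 and Itgb4 had the order K10-spastin 1, then 2, then 3. Krt5 had 1072, 2670 and 1608 FPKM and Krt14 2731, 1533 and 606 FPKM in K10-spastin libraries. Of the 6, only Krt15 passed, as lower (log2 change -3.05, limma adjusted p = 0.0269). The part of these markers in the mitotic kinesin levels was not tested. Kif20a shares 977 bases of exon with Cdc23 on the other strand and Kif4 shares 683 with Pdzd11. The sources used here do not give the strandedness of the counting, so reads may be split between these genes.

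**Figure D2:**
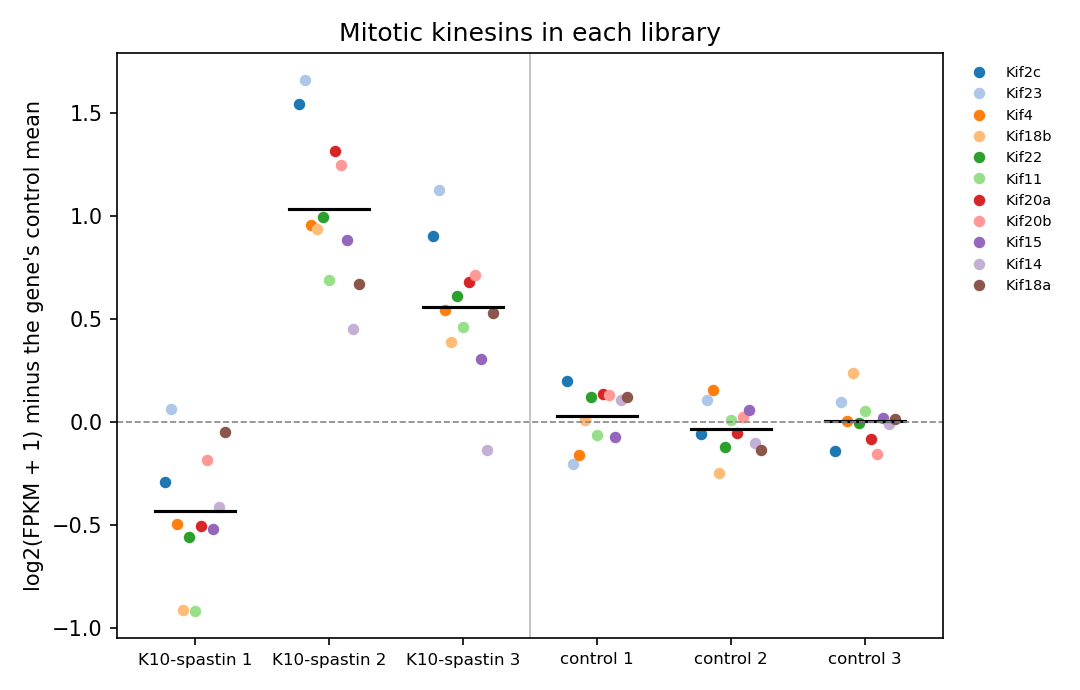
Level of each of the 11 tested mitotic kinesins in each of the 6 libraries, as log2(FPKM + 1) minus the gene's control mean, with 1 point per gene and library, black bars for the mean over genes and a dashed line at the control mean. Points of K10-spastin 2 are above 0 and above those of K10-spastin 3 and 1 for every gene, and the mean over genes is -0.43, 1.03 and 0.56 in K10-spastin 1, 2 and 3.

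Cell division genes that are not motors had the same pattern of libraries. Of 24 listed and tested, 23 had the order K10-spastin 2, then 3, then 1, K10-spastin 2 lay above all controls for 23 and K10-spastin 1 below all of them for 22, beside 39.8% and 58.1% of all genes. Cdc20, which activates the anaphase-promoting complex, had 57.3, 200.4 and 111 FPKM in K10-spastin libraries, against 57.4, 53.4 and 53.5 FPKM in controls. Top2a, the topoisomerase that untangles sister chromosomes, had 21.4, 88.6 and 70.8 FPKM in K10-spastin libraries, against 41.8, 45.6 and 52.9 FPKM in controls. By limma 0 of 24 passed, 1 had an unadjusted p under 0.05, and the median log2 change was 0.46. Without K10-spastin 1, 17 of 24 rose, beside 6.24% of all genes, and the median was 0.96, beside 0.01 over all genes. Without K10-spastin 2 none rose, beside 3.25% of all genes, and the median was 0.11, beside -0.16 over all genes.

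The promoters of mitotic kinesins are shown because they had the same order across the K10-spastin libraries, and because promoters of many genes of late cell cycle carry the letters TTTGAA, known as the cell cycle genes homology region. In the promoter table from RefSeq (GRCm38.p6; 250 bases before to 50 after the start), 51 members had an entry. The motif, TTTGAA on either strand (TTTGAA or TTCAAA), was found in 9 of the 10 tested mitotic kinesins with an entry, in 1 of 29 transport motors, in 15 of 20 other cell division genes, and in 17.9% of all 32851 promoters. In 7 of the 10 a match started at base 231 or later of the 300, as it did in 3.30% of all promoters, a position chosen after the matches were seen. A match is a description of these letters, and the sources used here do not give the build of the deposited table. Shown are 4 of those that passed without K10-spastin 1, 5′ to 3′ in the direction of the gene, with the motif in capitals. Kif23, Kif22 and Kif20b have capitals near the start, Kif22 has another match far upstream of it, and the match in Kif2c also lies upstream.
Kif23 promoter, chr9:61946750-61947049, - strand: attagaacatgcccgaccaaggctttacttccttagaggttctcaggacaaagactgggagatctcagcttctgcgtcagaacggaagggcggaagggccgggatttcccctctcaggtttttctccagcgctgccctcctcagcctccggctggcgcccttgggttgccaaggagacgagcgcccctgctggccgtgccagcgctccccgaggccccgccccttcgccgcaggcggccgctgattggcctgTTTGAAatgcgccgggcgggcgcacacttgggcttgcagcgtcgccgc
Kif2c promoter, chr4:117178723-117179022, - strand: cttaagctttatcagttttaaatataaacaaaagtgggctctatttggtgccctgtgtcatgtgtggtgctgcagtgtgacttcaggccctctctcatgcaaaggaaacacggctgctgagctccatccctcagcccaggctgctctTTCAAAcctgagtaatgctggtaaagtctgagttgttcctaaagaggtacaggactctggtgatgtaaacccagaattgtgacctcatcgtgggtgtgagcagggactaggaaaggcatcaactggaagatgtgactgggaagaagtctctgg
Kif22 promoter, chr7:127042371-127042670, - strand: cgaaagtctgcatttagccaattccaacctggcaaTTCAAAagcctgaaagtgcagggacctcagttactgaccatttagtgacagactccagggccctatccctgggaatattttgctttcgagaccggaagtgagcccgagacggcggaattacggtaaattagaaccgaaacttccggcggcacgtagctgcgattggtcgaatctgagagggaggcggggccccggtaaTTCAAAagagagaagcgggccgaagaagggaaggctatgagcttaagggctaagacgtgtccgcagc
Kif20b promoter, chr19:34922108-34922407, + strand: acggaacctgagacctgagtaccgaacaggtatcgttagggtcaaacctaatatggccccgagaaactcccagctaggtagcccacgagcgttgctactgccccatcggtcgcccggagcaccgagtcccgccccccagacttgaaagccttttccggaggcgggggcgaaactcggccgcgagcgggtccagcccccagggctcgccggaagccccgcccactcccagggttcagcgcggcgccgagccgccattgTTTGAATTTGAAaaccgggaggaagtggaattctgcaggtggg

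Among the kinesins that carry cargo, no heavy chain passed the test. Kif5b, the widely expressed heavy chain of kinesin-1, had 167, 145 and 150.4 FPKM in K10-spastin libraries, against 121, 146 and 134 FPKM in controls, with a log2 change of 0.21 ± 0.13 (SE; limma adjusted p = 0.297). Kif1c, a kinesin-3, had 82.0, 83.1 and 112 FPKM in K10-spastin libraries, against 106, 129 and 117 FPKM in controls, and the groups overlapped. The 9 tested heavy chains of this kind had 0 calls, with 2 at an unadjusted p under 0.05, Kif13a and Kif13b, which are paralogs and lay on opposite sides.
Kif13a, a kinesin-3 that moves recycling endosomes, had 1.59, 3.96 and 5.21 FPKM in K10-spastin libraries, against 8.83, 7.67 and 9.26 FPKM in controls, with a log2 change of -1.15 ± 0.33 (adjusted p = 0.0621). Kif13b, which binds the polarity scaffold Dlg1, had 16.3, 12.3 and 9.53 FPKM in K10-spastin libraries, against 6.19, 7.93 and 8.56 FPKM in controls, a log2 change of 0.66 ± 0.23 (limma adjusted p = 0.101). The libraries of the groups do not overlap for either, Kif13a being lower and Kif13b higher in K10-spastin. Without K10-spastin 1 Kif13a fell by 0.78 (adjusted p = 0.039), as it did without K10-spastin 3 (adjusted p = 0.0352). Kif16b and Kif1b, carriers of early endosomes and of vesicles and mitochondria, also lay wholly above the controls, Kif16b at 12.3 to 14.0 FPKM in K10-spastin libraries, against 11.0 to 12.0 FPKM in controls, and Kif1b at 47.7 to 53.7 FPKM in K10-spastin libraries, against 44.8 to 47.4 FPKM in controls. The groups overlapped for both heavy chains of kinesin-2, Kif3a (11.1 to 13.2 FPKM in K10-spastin libraries, 11.9 to 13.0 FPKM in controls) and Kif3b (4.25 to 4.87 FPKM in K10-spastin libraries, 3.45 to 4.45 FPKM in controls). They overlapped too for Kif21a (29.8 to 54.9 FPKM in K10-spastin libraries, 26.9 to 59.1 FPKM in controls), a kinesin-4.

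Kinesin light chains link kinesin-1 to cargo, and Klc4 fell. Of the 4 tested, 1 passed (25%, beside 11.0% of all genes). An unadjusted p under 0.05 was reached by 2 of the 4, beside 31.5% of all genes (limma). Klc4 had 0.695, 1.36 and 0.943 FPKM in K10-spastin libraries, against 3.39, 3.20 and 3.28 FPKM in controls, with a log2 change of -1.11 ± 0.20 (SE; limma adjusted p = 0.0189). All 3 K10-spastin values lie below all control values, at a level where the pseudocount of 1 understates the change. Without K10-spastin 1 the adjusted p was 0.0244. Of 13 alternatives, 8 called it, and the call was lost without any 1 control (adjusted p 0.0573 to 0.0888). Klc3, far more abundant, had 126, 124 and 119 FPKM in K10-spastin libraries, against 110.0, 96.1 and 99.9 FPKM in controls, a log2 change of 0.27 ± 0.11 (adjusted p = 0.155) without overlap of the groups. Klc3 shares 395 bases of exon with Ercc2 on the other strand, so its reads may be split. Klc1 had 108, 106 and 71.1 FPKM in K10-spastin libraries, against 98.1, 80.9 and 89.2 FPKM in controls, and Klc2 7.95 to 12.4 FPKM in K10-spastin libraries and 10.8 to 14.7 FPKM in controls, both overlapping.

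Of 4 tested kinesins of cilia and signalling, 0 passed and 1 had an unadjusted p under 0.05 (limma). Kif26a and Kif7 lay wholly below the controls, as did 24.8% of all genes. Kif26a, a kinesin without motor activity that acts in signalling, had 39.8, 26.1 and 26.5 FPKM in K10-spastin libraries, against 75.1, 40.2 and 52.0 FPKM in controls, with a log2 change of -0.82 ± 0.26 (SE; limma adjusted p = 0.0842). Kif7, the Hedgehog regulator at the tip of the primary cilium, had 0.508, 1.77 and 1.18 FPKM in K10-spastin libraries, against 1.94, 1.89 and 2.39 FPKM in controls, with -0.55 ± 0.26 (adjusted p = 0.194). The gap to the lowest control was narrow in each. Kif2a, a microtubule depolymerase, had 9.77, 12.0 and 11.9 FPKM in K10-spastin libraries, against 10.3, 11.4 and 9.26 FPKM in controls, and shares 1229 bases of exon with Dimt1 on the other strand. The groups also overlapped for Kif24 (1.68 to 3.47 FPKM in K10-spastin libraries, 1.63 to 2.44 FPKM in controls), a kinesin of the centriole.
Dynein-2 returns cargo from the tip of the cilium, and both of its tested chains lay below the controls without passing, 1 with an unadjusted p under 0.05. Dync2h1, its heavy chain, had 0.679, 1.04 and 0.885 FPKM in K10-spastin libraries, against 1.33, 1.56 and 1.34 FPKM in controls, and Dync2li1, its light intermediate chain, had 1.04, 1.43 and 1.26 FPKM in K10-spastin libraries, against 2.49, 1.98 and 1.87 FPKM in controls. The groups do not overlap for either, where 24.8% of all genes lay wholly below, and the adjusted p was 0.22 and 0.143 (limma). Of 20 genes of intraflagellar transport and the cilium, 19 were tested. By limma 0 passed and 5 had an unadjusted p under 0.05, 11 lay wholly below the controls (57.9%, beside 24.8% of all genes, 10 beside 20.3% under median-of-ratios and 8 beside 24.2% under quantile scaling), and all 19 changes were below 0 (18 under median-of-ratios scaling, 17 under quantile scaling and 16 without K10-spastin 1), beside 58.4% of all genes below 0, with a median log2 change of -0.45, or -0.24 without K10-spastin 1. Ift20 had 48.4, 44.9 and 71.4 FPKM in K10-spastin libraries, against 73.8, 74.6 and 54.5 FPKM in controls, and Ift43 had 16.7, 21.3 and 22.5 FPKM in K10-spastin libraries, against 36.3, 24.8 and 32.4 FPKM in controls.

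Dynein light chains held 3 of the 4 calls, which is 42.9% of the 7 tested, beside 11.0% of all genes. An unadjusted p under 0.05 was reached by 4 of the 7, beside 31.5% of all genes (limma). Dynll1, the LC8 light chain that dimerizes many partners beside dynein, had 672, 498 and 530.3 FPKM in K10-spastin libraries, against 380.0, 395 and 335 FPKM in controls, with a log2 change of 0.61 ± 0.15 (SE; limma adjusted p = 0.0456). Dynll2, its close paralog, had 11.8, 36.7 and 37.5 FPKM in K10-spastin libraries, against 79.8, 82.8 and 75.0 FPKM in controls, with -1.60 ± 0.40 (adjusted p = 0.0483). The K10-spastin libraries lay wholly above the controls for Dynll1 and wholly below for Dynll2. Without K10-spastin 1 the log2 changes were 0.48 and -1.07 (adjusted p = 0.0427 and 0.00811). Of 14 alternatives, 4 called Dynll1 and 5 called Dynll2, with an adjusted p of up to 0.171 and 0.144, and both calls were lost without K10-spastin 2 or any control, Dynll1's also without K10-spastin 3.
Their coding sequences differ at 50 of 267 bases (81.3% identity). The first 90 coding bases, from GENCODE M21 transcripts on chromosomes 5 and 11, both on the minus strand, are shown to compare the paralogs, with the 18 differing bases in capitals.
Dynll1: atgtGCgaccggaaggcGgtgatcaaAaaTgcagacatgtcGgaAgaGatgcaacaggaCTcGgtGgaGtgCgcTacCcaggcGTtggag
Dynll2: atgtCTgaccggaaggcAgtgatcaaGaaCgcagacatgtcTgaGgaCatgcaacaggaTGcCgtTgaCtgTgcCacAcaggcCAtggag
Dynlt1b, a Tctex1 light chain, had 11.2, 13.5 and 17.1 FPKM in K10-spastin libraries, against 31.4, 23.7 and 27.1 FPKM in controls, with a log2 change of -0.94 ± 0.20 (SE; limma adjusted p = 0.0291, and 0.0375 without K10-spastin 1). The groups do not overlap. It is 1 of 4 near-identical copies on chromosome 17: Dynlt1a, Dynlt1c and Dynlt1f have the same 339 coding bases, and each differs from Dynlt1b at 1. In the first 90 coding bases that base is in capitals in Dynlt1f, and reads may be split between the copies.
Dynlt1b: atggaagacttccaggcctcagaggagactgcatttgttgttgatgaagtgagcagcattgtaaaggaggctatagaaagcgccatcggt
Dynlt1f: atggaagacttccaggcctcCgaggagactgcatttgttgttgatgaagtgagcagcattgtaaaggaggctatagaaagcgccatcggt
The groups overlapped for Dynlt1a (0 to 2.95 FPKM in K10-spastin libraries, 1.98 to 4.21 FPKM in controls), Dynlt1c (1.32 to 2.70 FPKM in K10-spastin libraries, 2.39 to 7.01 FPKM in controls) and Dynlt1f (3.21 to 7.47 FPKM in K10-spastin libraries, 4.87 to 5.40 FPKM in controls). Summed over the 4 copies the level was 15.7, 23.2 and 30.2 FPKM in K10-spastin libraries, against 45.8, 35.5 and 37.9 FPKM in controls, with a log2 change of -0.80 ± 0.24 (limma adjusted p = 0.0721), so that the sum, chosen after the data were seen, was not called. The call was also lost without K10-spastin 2 or any 1 control. Dynlt3, the other Tctex1 gene, had 145, 114 and 134 FPKM in K10-spastin libraries, against 139, 161 and 127 FPKM in controls, which overlap.

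**Figure D3:**
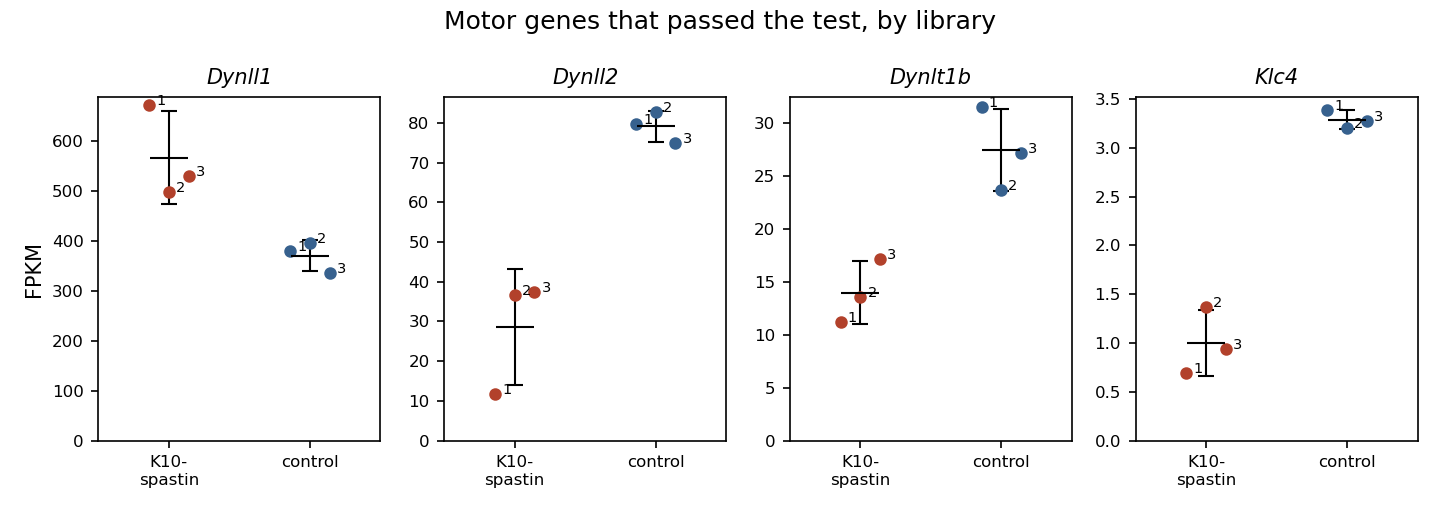
FPKM of the 4 motor genes that passed the test in each library, K10-spastin left of control in each panel. Numbers are libraries, bars are means with SD (n = 3), and each panel has its own axis from 0. In every panel the 3 K10-spastin values lie on one side of the 3 controls, above for Dynll1 and below for Dynll2, Dynlt1b and Klc4.

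No dynein-1 chain and no dynactin subunit passed, and 0 of the 4 tested dynein-1 chains had an unadjusted p under 0.05 (limma). Dync1h1, the motor heavy chain, had 206, 284 and 179 FPKM in K10-spastin libraries, against 188, 249 and 303 FPKM in controls, a wide spread inside each group. Dync1i2, an intermediate chain, had 47.2, 41.9 and 41.1 FPKM in K10-spastin libraries, against 39.0, 40.3 and 40.7 FPKM in controls. Dync1li1, which binds adaptors, had 38.1, 37.7 and 38.1 FPKM in K10-spastin libraries, against 34.4, 29.1 and 29.6 FPKM in controls, with a log2 change of 0.29 ± 0.13 (SE; limma adjusted p = 0.177). K10-spastin values lay wholly above controls for Dync1i2 and Dync1li1, and the groups overlapped for Dync1li2 (21.9 to 27.6 FPKM in K10-spastin libraries, 16.4 to 28.8 FPKM in controls). In dynactin, 0 of 6 passed and none had an unadjusted p under 0.05 (limma). Dctn1, which holds microtubules, had 112, 142 and 149 FPKM in K10-spastin libraries, against 171, 157 and 157 FPKM in controls. Dctn3, a subunit of the shoulder, had 54.4, 60.9 and 69.0 FPKM in K10-spastin libraries, against 70.6, 74.8 and 76.0 FPKM in controls. Both lay wholly below the controls. Dctn2 had 67.8, 82.4 and 76.6 FPKM in K10-spastin libraries, against 78.4, 75.0 and 72.4 FPKM in controls, and Dctn6, of the pointed end, had 16.9 to 26.3 FPKM in K10-spastin libraries and 14.3 to 17.0 FPKM in controls. These overlapped, as did Dctn4 (12.4 to 15.4 FPKM in K10-spastin libraries, 10.9 to 15.7 FPKM in controls) and Dctn5 (18.8 to 22.4 FPKM in K10-spastin libraries, 15.1 to 26.4 FPKM in controls).

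Dynein adaptors lay apart from the controls for 3 of 4 tested, 2 above and 1 below, beside 40.4% of all genes. The same 3 had an unadjusted p under 0.05, beside 31.5% of all genes, and none passed (limma). Bicd2, which links dynein to Golgi vesicles and the nuclear envelope, had 78.2, 52.4 and 43.8 FPKM in K10-spastin libraries, against 34.9, 31.0 and 29.9 FPKM in controls, with a log2 change of 0.81 ± 0.22 (SE; limma adjusted p = 0.0564). It rose without K10-spastin 1 (log2 change 0.58, adjusted p = 0.0443) and without K10-spastin 3 (adjusted p = 0.0322). Hook1 had 33.1, 30.2 and 25.5 FPKM in K10-spastin libraries, against 17.2, 23.0 and 20.6 FPKM in controls, with 0.53 ± 0.17 (adjusted p = 0.0839). Hook2 had 22.2, 24.3 and 21.5 FPKM in K10-spastin libraries, against 28.5, 28.6 and 28.0 FPKM in controls, with -0.31 ± 0.13 (adjusted p = 0.142). The K10-spastin libraries lay above the controls for Hook1 and below for Hook2. The groups overlapped for Hook3 (9.85 to 10.5 FPKM in K10-spastin libraries, 7.11 to 10.5 FPKM in controls).

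Some related genes lay on opposite sides, and their ratio within a library needs no scaling between libraries. The 4 pairs were chosen after their values were seen, so no test is given. Dynll1 over Dynll2 was 56.9, 13.6 and 14.1 in K10-spastin libraries, against 4.76, 4.77 and 4.46 in controls. Klc3 over Klc4 was 182, 90.8 and 126 in K10-spastin libraries, against 32.5, 30.0 and 30.5 in controls. Kif13b over Kif13a was 10.3, 3.10 and 1.83 in K10-spastin libraries, against 0.701, 1.03 and 0.925 in controls. Hook1 over Hook2 was 1.49, 1.25 and 1.19 in K10-spastin libraries, against 0.602, 0.804 and 0.734 in controls. In each pair the first gene lay wholly above the controls and the second wholly below. Every K10-spastin ratio is therefore bound to be above every control ratio, which adds nothing to the values of the genes. K10-spastin 1 has the highest ratio in each pair.

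**Figure D4:**
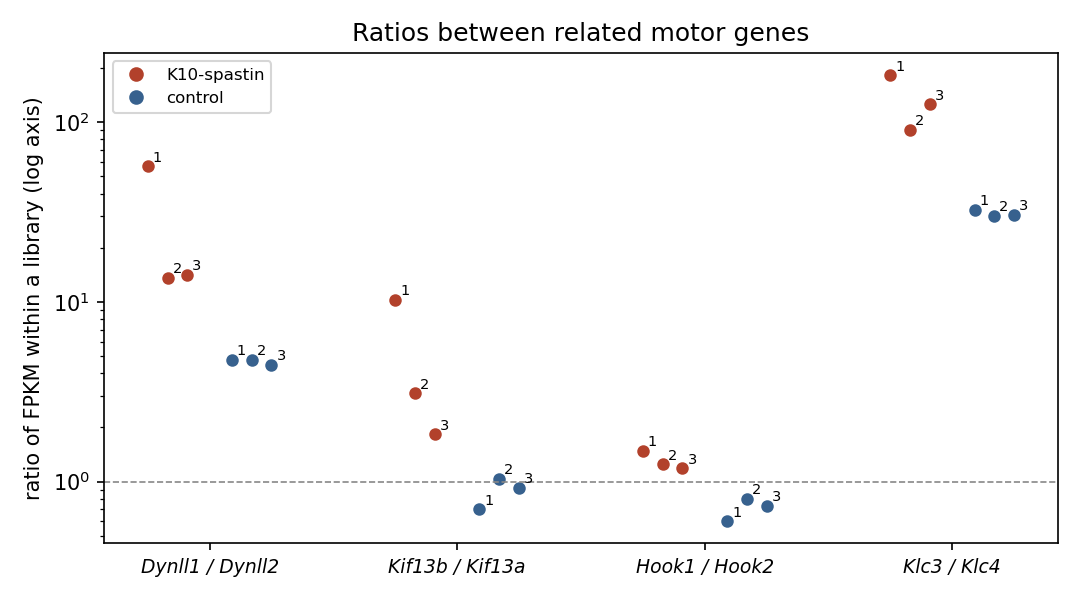
Ratio of FPKM within each library for 4 pairs of related motor genes, on a log axis, K10-spastin left of control. Points are numbered by library and the dashed line marks equal levels. Every K10-spastin point lies above every control point in each pair, which follows from the values of the genes in the chosen pairs. Dynll1 over Dynll2 is at 13.6 to 56.9 in K10-spastin libraries and 4.46 to 4.77 in controls.

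Of 40 other motor subunits and partners listed, 35 were tested and 7 passed (20%, beside 11.0% of all genes), 5 higher and 2 lower. Leaving out any 1 control, or K10-spastin 2, left 0 higher and 0 or 1 lower. Of all genes, 1.31% to 4.06% were called without 1 control and 6.36% without K10-spastin 2. Kifc2, a kinesin of the minus-end family, fell, with 0.532, 1.01 and 2.05 FPKM in K10-spastin libraries, against 8.01, 7.14 and 8.50 FPKM in controls (log2 change -2.07 ± 0.27, SE; limma adjusted p = 0.00944). Nin, which anchors microtubule minus ends at the centrosome and activates dynein, fell, with 2.10, 4.57 and 8.41 FPKM in K10-spastin libraries, against 23.5, 18.1 and 24.5 FPKM in controls (-2.07 ± 0.38, adjusted p = 0.0206). Neither overlaps with the controls. Map7d1, which recruits kinesin-1 to microtubules, rose, with 528, 328 and 181 FPKM in K10-spastin libraries, against 60.8, 90.3 and 115 FPKM in controls (1.86 ± 0.40, adjusted p = 0.0307). It was highest in K10-spastin 1 and lowest in K10-spastin 3, all above the controls. Capzb, the capping protein subunit shared with dynactin, had 319.6, 286 and 282 FPKM in K10-spastin libraries, against 249, 251 and 244 FPKM in controls and was not called (adjusted p = 0.163). Kifc3, Ndel1, Spag9 and Plekhm2, named after their values were seen, also rose, by 1.39, 0.88, 1.01 and 1.07 on the log2 scale (adjusted p 0.0266 to 0.0493), and Kifc3 and Spag9 were not called without K10-spastin 1. Cenpe, a kinetochore kinesin, had 1.51, 5.93 and 3.59 FPKM in K10-spastin libraries, against 1.86, 2.06 and 2.73 FPKM in controls, in the order seen for the mitotic kinesins. Kifap3, the kinesin-2 adaptor, had 3.67, 5.05 and 4.69 FPKM in K10-spastin libraries, against 5.84, 6.78 and 6.04 FPKM in controls, wholly below the controls and not called. Kifc1 had 5.92, 24.6 and 15.4 FPKM in K10-spastin libraries, against 11.2, 8.55 and 10.7 FPKM in controls. Kifc5b had 1.65, 5.74 and 3.86 FPKM, against 4.16, 2.52 and 3.13 FPKM. Both had the order of the mitotic kinesins and were not called. Dynlrb1 had 104, 118 and 135 FPKM in K10-spastin libraries, against 129, 135 and 130 FPKM in controls, which overlap. Dynlrb2 was listed at 0 in every library.

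The 16 members with a mean under 1 FPKM were not tested. Dync1i1, Kif12, Kif28 and Kif2b were listed at 0 in all 6 libraries. The other 12 were the neuronal kinesins Kif1a, Kif5a and Kif5c, and Bicd1, Kif17, Kif19a, Kif21b, Kif26b, Kif27, Kif3c, Kif6 and Kif9. They reached at most 1.02 FPKM in any library, in Kif3c.
The remaining member, Kif1bp, had 10.3, 18.1 and 19.5 FPKM in K10-spastin libraries, against 19.2, 16.0 and 14.45 FPKM in controls, which overlap. Its unadjusted p was 0.737 (limma).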

How the data were processed

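The authors deposited 1 table of FPKM (fragments scaled by gene length and depth) for 35275 Ensembl identifiers in 6 libraries. The submitters' processing notes name CASAVA and TopHat2, without versions. The sources used here do not state the counter, genome build, annotation or strand setting. Symbols were found for 34490 identifiers and not for 785.

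Members and gene lists were chosen with earlier results of these data known. The 11071 genes averaging 1 FPKM or more were tested on log2(FPKM + 1), a scale that compresses low genes, with limma 3.58.1 in R 4.3.3 (lmFit, eBayes with a trend, two-sided, Benjamini-Hochberg over all genes tested, called at an adjusted p under 0.05) and no covariate. The script was tested on simulated data in which both groups had the spread of the controls. That test does not cover genes with a wider spread among K10-spastin libraries. Values in every library are given for called members and, per role, for up to 2 with the highest mean and 2 with the smallest p, and likewise for lists; values of other members are added. Depth came from the step between low values of 14953 genes with 1 transcript, where 90.6% to 91.6% of values up to 20 fragments were whole within 0.05. It describes precision only, and FPKM are not counts, so no count test was run. Copies were found with BLAST 2.17.0. Alternatives covered the pseudocount, the filter, scaling, trend, array weights, the replicate block and each library left out. Summing the Dynlt1 copies, and the alternatives for Spast, were added after the data were seen. The code ran in Python 3.11.15 (pandas 2.3.3, numpy 2.4.6, matplotlib 3.10.9).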

Additional observations from a re-analysis of the deposited data

How the results depend on the processing

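Over 33 named motor genes, 14 alternatives, with the sum of the Dynlt1 copies for Dynlt1b, gave 458 values. Of these, 390 kept their direction and their side of the threshold, 31 lost the call (1 of them the sum) and 21 gained it. The other 16, in 5 genes that passed neither as deposited nor there, changed sign. Those were Dctn2 (log2 change -0.0772 with quantile normalization, -0.0623 to 0.0764 with 1 library left out), Dync1h1 (0.0001 with median-of-ratios scaling, -0.336 to 0.0151 with 1 left out), Dynlt3 (0.0275 with median-of-ratios scaling), Kif1bp (0.0479 with median-of-ratios scaling, 0.228 with array weights, -0.249 to 0.181 with 1 left out) and Klc1 (-0.0545 with quantile normalization, -0.112 with array weights, -0.0338 to 0.266 with 1 left out). Mitotic kinesins numbered 0 higher, 6 with array weights and 0 to 5 with 1 library left out, 5 being without K10-spastin 1; 0 were lower in every alternative run. Transport motors numbered 1 higher, against 0 without a filter, with median-of-ratios scaling, with quantile normalization and without a trend, 4 with array weights, and 0 to 2 with 1 library left out. Those lower numbered 3, against 0 without a filter, 1 with a filter at 5 FPKM, 6 with array weights, and 0 to 5 with 1 library left out. Spast kept its call in every alternative run. The cause was not tested. With the replicate number as a block (replicate block), 0 transport motors were higher and 0 lower, and 0 mitotic kinesins passed. The labels do not state that equal numbers mark a shared litter or day. Correlations of same-numbered deviations were -0.378 to -0.0471, and 0 of the K10-spastin libraries correlated best with their own number. With 3 libraries per group and a wide spread among K10-spastin libraries, these correlations cannot exclude a pairing. Over all genes the count of 1222 became 667 without a filter, 3306 with array weights, 492 with the replicate block and 145 to 1382 with 1 library left out (449, 212 and 145 without controls 1, 2 and 3, and 704 without K10-spastin 2). Median-of-ratios scaling and quantile normalization moved the share of calls that were higher to 54.9% and 40.6%, beside 46.6% in the values as deposited.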
